A study of Mus musculus with 9 samples.

Results

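The miR-34 and miR-449 family comprises 6 mouse miRNAs, mmu-miR-34a, mmu-miR-34b, mmu-miR-34c, mmu-miR-449a, mmu-miR-449b and mmu-miR-449c. Its members were taken by name from a table of 1164 miRNAs counted in small extracellular vesicles (smEVs), the membrane-bound particles that cells shed into their medium. Of the 6 members, 3 had counts (miR-34a, miR-34b and miR-34c), whereas 469 of the 1164 miRNAs had at least 1 count. The vesicles came from kidney medullary (KM) cells, immortalised mouse lines isolated from Bbs4-/- mice, Bbs6-/- mice and wild-type (WT) mice, with 1 line per genotype. Bbs4 is a subunit of the BBSome, a complex that moves membrane proteins in and out of the primary cilium, and Bbs6 is a chaperonin-like protein that acts in its assembly. All lines were grown to confluency and kept without serum for 24 h to induce ciliation, and none received a further treatment. The study reported that serum lowered ciliation in the mutant lines only, and that starved mutant lines were more often ciliated, with longer cilia. From each line 3 smEV pellets were sequenced, described as independent preparations. Since a genotype is represented by 1 line, genotype and line cannot be told apart, and p-values measure the spread between preparations of a line. The table holds miRNAs only, so the loss of Bbs4 or Bbs6 could not be checked in it.

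miRNAs are short RNAs that pair with messenger RNAs mainly through their seed, bases 2 to 8 from the 5′ end, and lower the output of those messengers. The miR-34 and miR-449 genes share a seed and are known for their part in the formation of motile cilia, where loss of both loci in mice leaves too few cilia on multiciliated cells of the airway and reproductive tract. miR-34a is also a direct transcriptional target of p53 and is expressed widely, while miR-34b and miR-34c are made from 1 shared transcript and are most abundant in tissues such as testis and airway.

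The mature sequences are shown because the shared seed defines the family. Entries were found for 5 of the 6 members in RefSeq (GRCm38.p6), the other being miR-449b, and no sequence is shown for miR-34c-5p. The seed is in capitals, and the sequences of the 5p arm are as follows.
miR-34a-5p: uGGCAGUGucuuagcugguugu
miR-34b-5p: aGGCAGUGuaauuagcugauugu
miR-449a-5p: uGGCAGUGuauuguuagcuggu
miR-449c-5p: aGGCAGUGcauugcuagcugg
Among the 1679 mature names with an entry in the RefSeq table, the seed GGCAGUG was found in these 4 and in no name outside the family. Over the whole length, aligned from the 5′ end without gaps, 11 of 22 positions were identical between miR-34a-5p and miR-34b-5p. Between miR-34a-5p and miR-449a-5p 15 of 22 were. Such counts are no measure of relatedness, since a shift lowers them. miR-34a-5p (22 nt), miR-34b-5p (23 nt) and miR-449a-5p (22 nt) all carry uuagcug beyond the seed, at shifted positions. By the count without gaps, miR-449a-5p and miR-449c-5p had the most identical positions, 18 of 21. They differed by U1A, U9C and U14C, counted from 1 at the 5′ end with the base of miR-449a-5p first.

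The 3p arms are shown for the miR-34 members, since they separate miR-34a from the other two.
miR-34a-3p: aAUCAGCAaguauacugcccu
miR-34b-3p: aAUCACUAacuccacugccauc
miR-34c-3p: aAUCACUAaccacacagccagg
miR-34b-3p and miR-34c-3p shared the seed AUCACUA, were identical at 17 of 22 positions and differed by U11C, C12A, U16A, U21G and C22G, counted from 1 at the 5′ end with the base of miR-34b-3p first. The names in the count table carry no arm, so a count below cannot be assigned to the 5p or the 3p sequence.

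The 6 genes lie at 3 places in the genome (GENCODE vM21, GRCm38). Mir34a lies alone at chr4:150068454-150068555 on the plus strand and overlaps an exon of Gm37795, an unclassified transcript on the same strand. Mir34b (chr9:51103562-51103645) and Mir34c (chr9:51103034-51103110) lie on the minus strand, with starts 528 bp apart, in an intron of Btg4, which is on the opposite strand. Mir449c (chr13:113035983-113036091), Mir449b (chr13:113037419-113037498) and Mir449a (chr13:113037534-113037624) lie within 1642 bp in an intron of Cdc20b on the plus strand, the same strand as their host gene.

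The WT libraries held 64118 to 130905 miRNA counts, the Bbs4-/- libraries 176935 to 457163 and the Bbs6-/- libraries 192654 to 423784, so each WT library was shallower than each mutant library. Levels are given as CPM (counts scaled to library size) after TMM scaling by edgeR, and a count of 0 is taken to allow up to 3 counts, which is 19.4 to 36.5 CPM in the WT, 6.98 to 19.0 CPM in the Bbs4-/- and 8.59 to 16.5 CPM in the Bbs6-/- libraries. Such limits and the intervals of shares below cover counting error only. Replicate 2 of Bbs6-/- stood apart from the other libraries of its line, since its counts differed from those of replicates 3 and 4 by a chi-square of 86.2 and 110 for each degree of freedom, against 12.4 between these 2. Values of the Bbs6-/- line are therefore also given without it. Libraries are named by the numbers in the count table.

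In all, the family took 1525 of 2086664 counts, and its summed level was lowest in WT and highest in Bbs6-/-. It summed to 146, 142 and 401 CPM in WT, 386, 354 and 407 CPM in Bbs4-/-, and 884, 1507 and 1483 CPM in Bbs6-/-. The Bbs6-/- libraries lay above all the others, while replicate 4 of WT lay within the range of Bbs4-/-. The members behaved unlike each other. miR-34a was counted in all 9 libraries, miR-34b and miR-34c were counted in all 6 mutant libraries and in no WT library, and the 3 members of the miR-449 locus were counted in none, as the plot of levels by library shows.

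**Figure D1:**
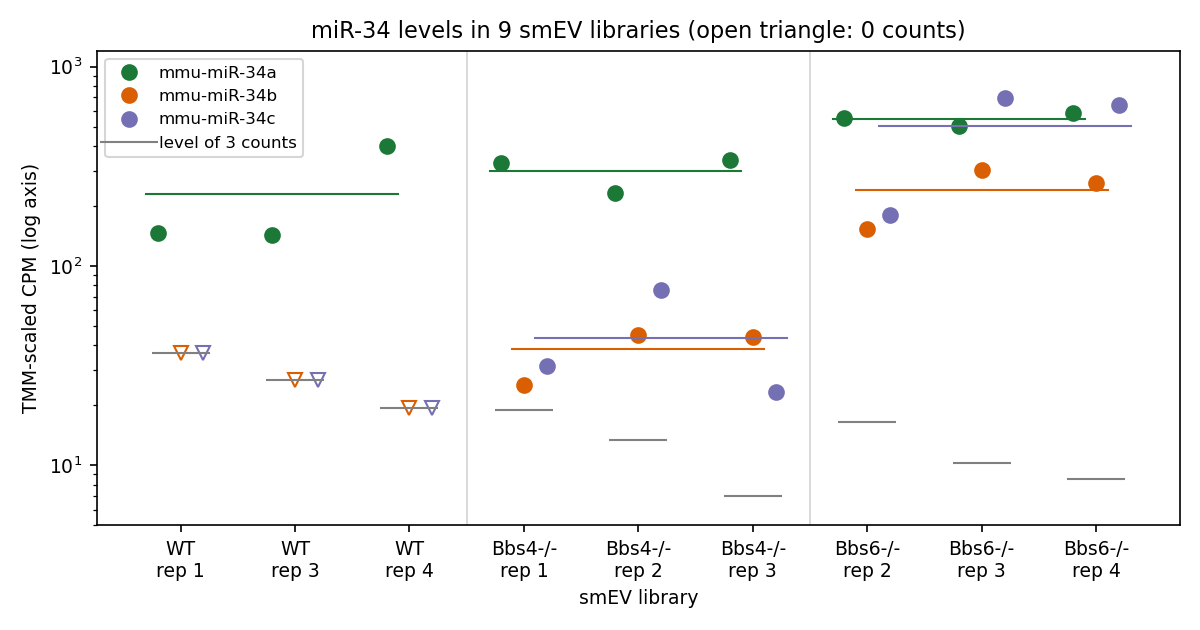
TMM-scaled CPM (log axis) of miR-34a, miR-34b and miR-34c in each of the 9 smEV libraries, with filled points for measured levels, coloured lines for group means and grey dashes for the level of 3 counts. Open triangles mark libraries with 0 counts, drawn at that level. miR-34b and miR-34c had 0 counts in the 3 WT libraries and reached 154 to 304 CPM and 181 to 697 CPM in Bbs6-/-.

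miR-34b had 0 counts in each WT library, 4, 10 and 19 counts in the Bbs4-/- libraries, and 28, 89 and 91 counts in the Bbs6-/- libraries. Its levels were 25.3, 44.8 and 44.2 CPM in Bbs4-/- (38.1 ± 11.1, SD, n = 3) and 154, 304 and 260 CPM in Bbs6-/- (239 ± 77.4, SD, n = 3). The lowest Bbs6-/- library was above the highest Bbs4-/- library, and all mutant libraries held counts that the WT libraries lacked. In Bbs4-/-, 2 of the 3 libraries were above the highest WT limit of 36.5 CPM, whereas all 3 Bbs6-/- libraries were.

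miR-34c, made from the same transcript, also had 0 counts in each WT library, with 5, 17 and 10 counts in Bbs4-/- and 33, 204 and 223 counts in Bbs6-/-. These counts correspond to 31.6, 76.1 and 23.3 CPM in Bbs4-/- (43.7 ± 28.4, SD, n = 3) and 181, 697 and 638 CPM in Bbs6-/- (506 ± 283, SD, n = 3). Again the mutants did not overlap, and replicate 2 was the lowest of the Bbs6-/- libraries for both miRNAs. Only 1 of the 3 Bbs4-/- libraries, replicate 2, was above the highest WT limit.

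Both miRNAs of the locus were called higher in the smEVs of both mutants than in those of WT, although the Bbs4-/- calls depended on the setting. The libraries hold no miRNAs of the cells themselves, so loading into vesicles was not tested. A call required a Benjamini-Hochberg adjusted p under 0.1 in edgeR's quasi-likelihood test together with at least 2 on the log2 fold scale, the thresholds of the study. In Bbs6-/-, the mean of miR-34b was 8.70 times the mean limit of the WT libraries, 27.5 CPM (adjusted p = 0.00334, edgeR). That of miR-34c was 18.4 times this limit (adjusted p = 0.00344, edgeR). Such ratios leave out the spread between the mutant libraries, and each adjusted p belongs to the fitted change and not to the ratio. Without replicate 2 of Bbs6-/- the ratios were 10.3 and 24.3. Of the 6 members, 3 were tested in this comparison and 2 were called higher, beside 2.68% of all 298 miRNAs tested.

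In Bbs4-/- the same pair was called with less margin. The mean of miR-34b was 1.38 times the mean WT limit (adjusted p = 0.0586, edgeR) and that of miR-34c 1.59 times (adjusted p = 0.0573, edgeR). For each, 2 of the 3 Bbs4-/- libraries were above that limit. Both ratios are under the fold that a call required. Only the fitted log2 fold changes met it, 5.89 for miR-34b and 6.07 for miR-34c, and these depend on the prior count. Of the 3 members tested 2 were called higher, beside 3.90% of all 308 miRNAs tested. Without replicate 2 of Bbs4-/- the mean of miR-34c was 27.4 CPM, at the WT limit (0.997 times), and that of miR-34b was 34.8 CPM, 1.26 times the limit. Neither was then called, with an adjusted p of 0.157 for miR-34c and 0.108 for miR-34b (edgeR), and both calls were also lost without replicate 1 of Bbs4-/- or replicate 3 or 4 of WT. That of miR-34b was lost without replicate 3 of Bbs4-/- as well. At the pooled Bbs4-/- share of counts, the 301240 WT counts would have held 11.7 counts of miR-34b and 11.4 of miR-34c, and the shallowest WT library 2.50 and 2.42. At the Bbs6-/- share the WT counts would have held 66.8 and 148.

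miR-34a was the 1 member present in every library. Its counts were 12, 16 and 62 in WT, 52, 52 and 146 in Bbs4-/-, and 100, 148 and 204 in Bbs6-/-. Its levels were 146, 142 and 401 CPM in WT (230 ± 148, SD, n = 3), 329, 233 and 340 CPM in Bbs4-/- (301 ± 58.8, SD, n = 3) and 549, 506 and 584 CPM in Bbs6-/- (546 ± 39.1, SD, n = 3). The Bbs6-/- libraries lay above all the others, and replicate 4 of WT lay above each Bbs4-/- library.

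miR-34a was not called in any comparison. Between Bbs6-/- and WT its log2 fold change was 1.23 (95% interval 0.20 to 2.26, adjusted p = 0.141, edgeR). Between Bbs4-/- and WT it was 0.23 (95% interval -0.72 to 1.18, adjusted p = 0.788, edgeR), an interval that takes in both a decrease and a more than 2-fold increase. Without replicate 2 of Bbs6-/- the change against WT was 1.25 (adjusted p = 0.0943, edgeR), still under the limit on the fold. The WT spread depended on replicate 4, without which the log2 fold change was 1.88 in Bbs6-/- (adjusted p = 0.0323, edgeR), under the limit on the fold, and 0.97 in Bbs4-/- (adjusted p = 0.180, edgeR). As for overlap, all 3 tested members were without overlap between Bbs6-/- and WT, beside 29.2% of all miRNAs tested. Between Bbs4-/- and WT miR-34b and miR-34c were without overlap where a WT count of 0 is read as 0, beside 31.8% of all miRNAs tested on the same reading, but 1 library of miR-34b and 2 of miR-34c lay under the highest WT limit.

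**Figure D2:**
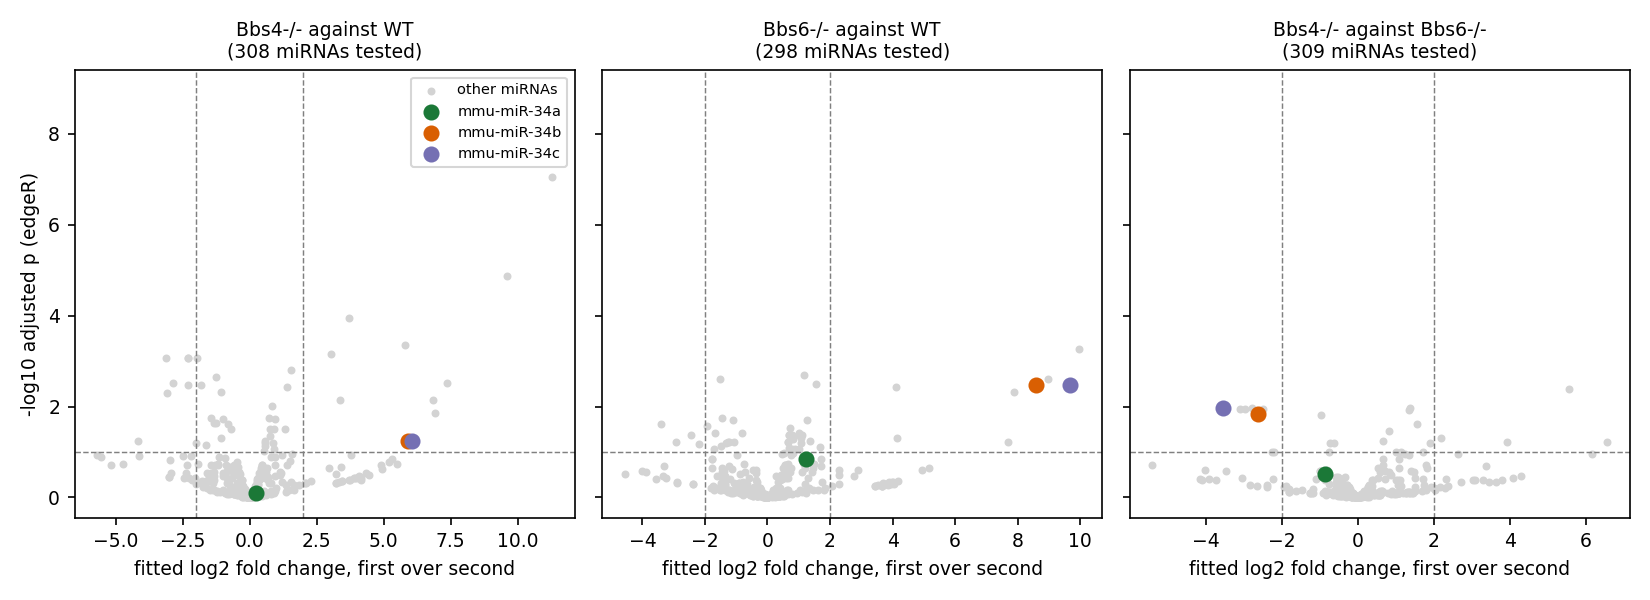
Fitted log2 fold change (first group over second, horizontal axis) against -log10 of the adjusted p (edgeR, vertical axis) for all miRNAs tested in each comparison, with the limits of a call as dashed lines and the 3 counted members coloured. miR-34b and miR-34c lie beyond both limits in all 3 panels and miR-34a in none. Fitted values of miR-34b and miR-34c against WT, where they had 0 counts, depend on the prior count and are no measure of size.

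miR-449a, miR-449b and miR-449c had 0 counts in each of the 9 libraries. Their level was therefore under 36.5 CPM in the shallowest WT library and under 6.98 CPM in the deepest Bbs4-/- library. In Bbs6-/-, where miR-34b and miR-34c were highest, a count of 0 allowed up to 16.5, 10.3 and 8.59 CPM. All of the mutant limits were under the lowest level of miR-34b and miR-34c in the same line. In the Bbs6-/- smEVs each miR-449 member was thus below miR-34b and miR-34c beyond the counting limit. In Bbs4-/- the margin was small, with a limit of 19.0 CPM in replicate 1 against 25.3 CPM of miR-34b, which rests on 4 counts. The limit holds for a single member, and the summed loci were not compared. No test could be fitted to the locus, and whether it is transcribed in the KM cells was not measured.

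The mutants were then compared with each other, a contrast in which miR-34b and miR-34c had counts on both sides and the fitted change can be read as a size. Over all 9 libraries, miR-34b was lower in Bbs4-/- than in Bbs6-/-, at -2.61 on the log2 scale (standard error 0.54, 95% interval -3.79 to -1.43, adjusted p = 0.0147, edgeR), which is 6.11-fold. miR-34c was lower too, at -3.55 (standard error 0.64, 95% interval -4.94 to -2.15, adjusted p = 0.0108, edgeR), which is 11.7-fold. The change of miR-34a was -0.86 (standard error 0.40, 95% interval -1.72 to -0.00, adjusted p = 0.305, edgeR), or -0.92 without replicate 2 of Bbs6-/- (adjusted p = 0.175, edgeR), and was not called. Of the 3 tested members 2 were thus called higher in Bbs6-/-, beside 2.59% of 309 miRNAs tested, and all 3 were without overlap, beside 22.0% of the miRNAs tested.

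The contrast between the mutants did not rest on 1 library. Without replicate 2 of Bbs6-/-, the lowest of its line, the log2 fold change was -2.90 for miR-34b (adjusted p = 0.00290, edgeR) and -4.01 for miR-34c (adjusted p = 0.000156, edgeR). Without replicate 2 of Bbs4-/-, the highest of its line, it was -2.78 (adjusted p = 0.0744, edgeR) and -4.31 (adjusted p = 0.0489, edgeR). Both were called in each of the fits that left out 1 library, whereas in Bbs4-/- against WT both were called in 1 of 6 such fits. The fits are unlike, since the direct contrast drew on all 9 libraries and that against WT on 6. With all 9 libraries in one fit, Bbs4-/- against WT gave an adjusted p of 0.00895 for miR-34b and 0.0208 for miR-34c (edgeR). The plot of adjusted p over settings shows the fits of each comparison.

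**Figure D3:**
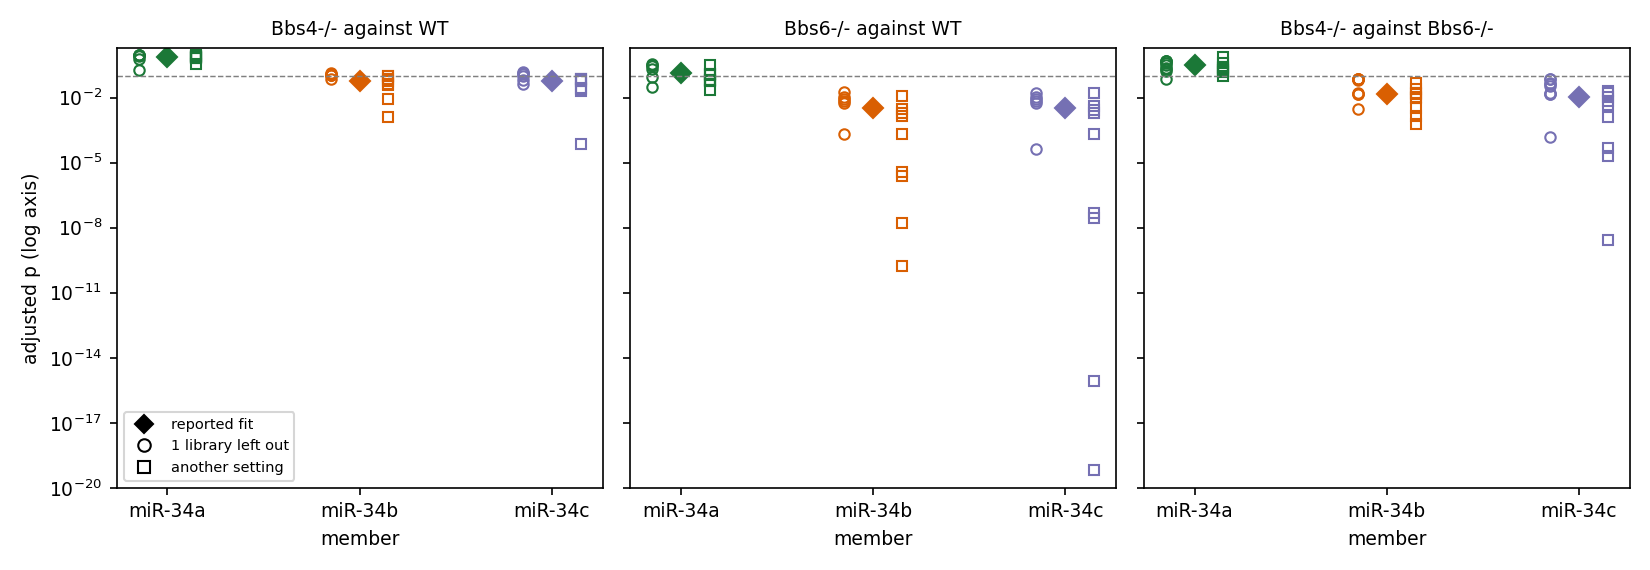
Adjusted p (log axis) of the 3 counted members in each comparison for the reported fit (diamond), for fits without 1 library (circles) and for other settings of the test (squares), with the limit of 0.1 dashed. In Bbs4-/- against WT the points of miR-34b and miR-34c lie on both sides of the limit, and in the other comparisons all of theirs lie under it.

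The make-up of the family in the vesicles differed between the lines. The miR-34b/34c locus gave 0 of 12, 0 of 16 and 0 of 62 family counts in WT, which allows shares of up to 25.0%, 18.8% and 4.84%. It gave 14.8% (95% Wilson interval 7.96 to 25.7), 34.2% (24.7 to 45.2) and 16.6% (11.8 to 22.8) in Bbs4-/-, and 37.9% (30.8 to 45.6), 66.4% (61.9 to 70.7) and 60.6% (56.3 to 64.7) in Bbs6-/-. The group means were 21.8% ± 10.7 and 55.0% ± 15.1 (SD, n = 3). The highest Bbs4-/- and the lowest Bbs6-/- library differed by less than their counting intervals, and without replicate 2 of Bbs6-/- the mean of that line was 63.5%. These shares are a description without a test, because miR-34b, miR-34c and miR-34a also enter the comparisons above.

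Within the locus, miR-34c made up 55.6% (26.7 to 81.1), 63.0% (44.2 to 78.5) and 34.5% (19.9 to 52.7) of the pair's counts in Bbs4-/-, from 9, 27 and 29 counts. In Bbs6-/- it made up 54.1% (41.7 to 66.0), 69.6% (64.1 to 74.6) and 71.0% (65.8 to 75.8). The means were 51.0% ± 14.8 and 64.9% ± 9.39 (SD, n = 3). The libraries of the mutants overlapped, and the overlap rested on replicate 2 of Bbs6-/-, since the shares in replicates 3 and 4 were above each Bbs4-/- share. The counting intervals of replicates 1 and 2 of Bbs4-/- took in both of these shares, and the balance of the pair was not tested between the mutants. Among levels within a line, miR-34c and miR-34a overlapped in Bbs6-/-, where miR-34b was below miR-34a in each library, and miR-34b and miR-34c overlapped in Bbs4-/-, where both were below miR-34a in each library.

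**Figure D4:**
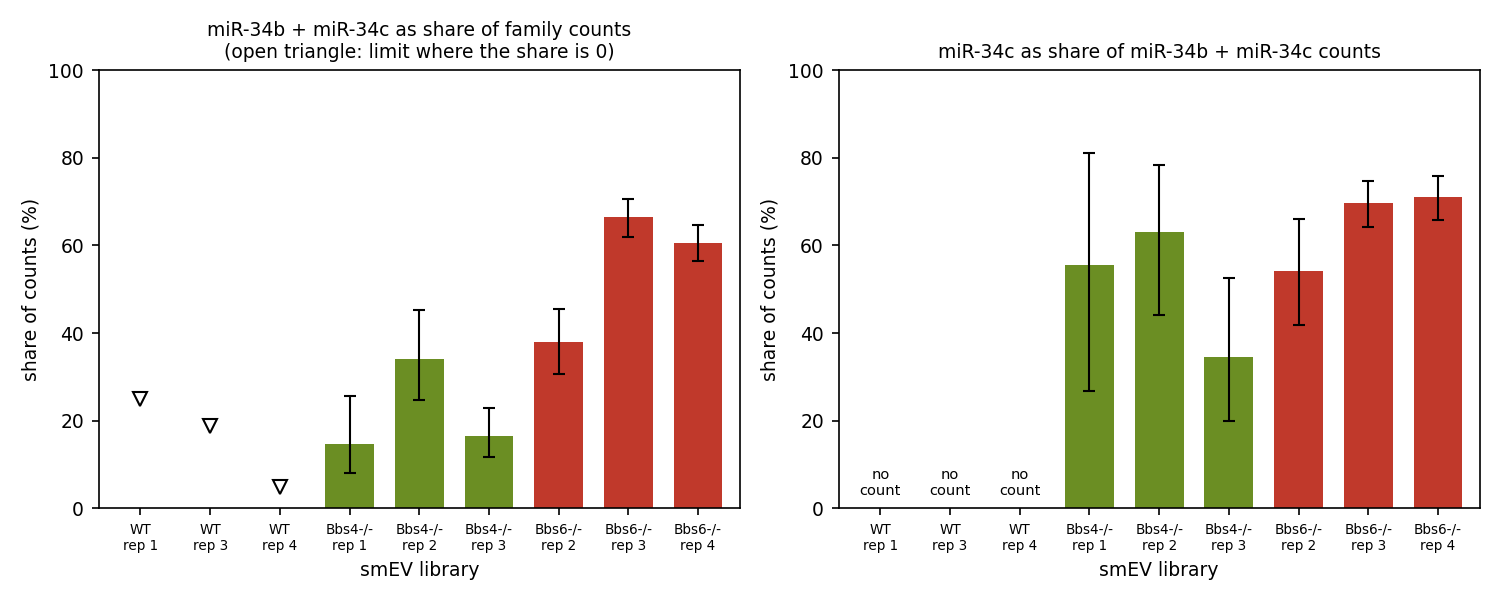
Left, miR-34b and miR-34c as a share of family counts (%), and right, miR-34c as a share of the counts of that pair (%), in each of the 9 smEV libraries with 95% Wilson intervals. Open triangles mark the limit where the share was 0. The left share is at most 34.2% in Bbs4-/- and at least 37.9% in Bbs6-/-, and the right share overlaps between the mutants through replicate 2 of Bbs6-/-.

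The miRNAs whose levels over the 9 libraries were most like those of each member were sought by Pearson's r of log2 CPM (prior count of 2) among 308 others. The 9 libraries fall into 3 lines, and those of WT also share a lower depth, so r is given as a description. For miR-34b the highest values were those of miR-34c (r = 0.982), miR-181a (r = 0.972) and miR-93 (r = 0.952), and for miR-34c those of miR-181a (r = 0.985), miR-34b (r = 0.982) and miR-27b (r = 0.924). miR-181a was at 997 to 1086 CPM in WT, 1364 to 1747 CPM in Bbs4-/- and 2651 to 3378 CPM in Bbs6-/-, the same order of the lines at a higher level. For miR-34a they were miR-22 (r = 0.847), which p53 is known to induce, miR-29b (r = 0.822) and miR-34b (r = 0.783). The likeness to miR-22 was not particular to miR-34a. By ranks (Spearman's rho) miR-22 was also among the 3 most like miR-34b (0.921) and miR-34c (0.887), above its value for miR-34a (0.833).

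Other miRNAs known for roles near those of the family were looked at as lists. Of 19 miRNAs with a known part in ciliogenesis or cystic kidney disease, 17 were tested. Of these, 2 were called higher in each mutant, miR-200c and miR-141, beside 3.90% and 2.68% of all miRNAs tested. In Bbs4-/- 4 and in Bbs6-/- 6 of the 17 had an unadjusted p under 0.05 (edgeR). Low values were common over all miRNAs, with 40 of 308 at 0.00761 or less in Bbs4-/- and 52 of 298 at 0.0245 or less in Bbs6-/- (edgeR). These cut-offs are stricter than 0.05, and the share of all miRNAs under 0.05 was not counted. The list counts are therefore not read as an excess. The list had a median log2 fold change of 0.24 in Bbs4-/- and 0.49 in Bbs6-/- beside -0.02 and -0.01 over all miRNAs tested. miR-200c, a keeper of the epithelial state, was at 6.46 to 17.8 CPM in WT, 3243 to 3373 CPM in Bbs4-/- and 176, 3653 and 4414 CPM in Bbs6-/-, and miR-141, made from the same transcript, was at 0 in WT, 63.2 to 152 CPM in Bbs4-/- and 5.49, 195 and 177 CPM in Bbs6-/-. Replicate 2 was the low Bbs6-/- library for these as it was for miR-34b and miR-34c. In the direct contrast none of the 17 was called by edgeR (0 at an unadjusted p under 0.05, 0 called by DESeq2), with a median of -0.17 beside 0.04 over all.

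Of 9 other miRNAs known to respond to p53 or to have their processing raised by it, 8 were tested. None was called against WT by edgeR or by DESeq2, with 1 at an unadjusted p under 0.05 in Bbs4-/- and 2 in Bbs6-/- (edgeR). The low values over all miRNAs given above are for stricter cut-offs, so these counts are not read as an excess either. The median log2 fold changes were 0.73 and 1.04, beside which miR-34a had 0.23 and 1.23. In the direct contrast 1 of the 8 was called, miR-143, beside 4 of 309 miRNAs tested that were called higher in Bbs4-/-. It was higher in Bbs4-/- (log2 fold change 2.19, adjusted p = 0.0484, edgeR) with 119 to 255 CPM against 20.0 to 64.9 CPM. This is the direction opposite to that of miR-34b and miR-34c.

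The label of the cells was checked with miRNAs that mark cell types. The 5 epithelial markers summed to 9993 to 13305 CPM in WT, 16968 to 18926 CPM in Bbs4-/- and 16551 to 21410 CPM in Bbs6-/-, with miR-141 at 0 in each WT library. Of the 5, 2 were called higher in each mutant (miR-200c and miR-141), beside 3.90% of all miRNAs tested in Bbs4-/- and 2.68% in Bbs6-/-, and the other 3 were not called. The 3 kidney tubule markers were low, at 72.9 to 312 CPM in WT, 209 to 261 CPM in Bbs4-/- and 269 to 379 CPM in Bbs6-/-, and none was called by edgeR or DESeq2 (0 at an unadjusted p under 0.05). Of 4 mesenchymal markers, miR-145a and miR-214 were at 0 in all libraries, and the list summed to 80.1 to 162 CPM in WT, 123 to 273 CPM in Bbs4-/- and 20.0 to 71.8 CPM in Bbs6-/-. The 6 blood and liver markers, which can stand for serum left in the medium, summed to 162 to 255 CPM in WT, 60.5 to 126 CPM in Bbs4-/- and 45.8 to 109 CPM in Bbs6-/-. In Bbs4-/- against WT 5 of them were tested, with 1 called lower and 0 higher, beside 7 of 308 miRNAs called lower. The 1 was miR-122 (log2 fold change -4.16, adjusted p = 0.0586, edgeR). It rests on 21 counts in these libraries, with 0, 2 and 0 in Bbs4-/-. The part of these markers in the levels of miR-34b and miR-34c was not tested.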

How the data were processed

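Small RNA of smEV pellets from Bbs4-/-, Bbs6-/- and WT KM cells was sequenced in 9 libraries, 3 per line. The authors trimmed adapters (cutadapt v1.9), removed low-quality reads, collapsed reads by unique molecular identifiers, discarded reads under 15 nt and counted miRNAs with miRDeep2 (mapper 2.0.0.8). Where a miRNA had several entries, the largest count was kept. The authors deposited raw counts without normalization. The submitters' processing notes name GRCm38. Groups follow the sample labels. Bbs6-/- and WT columns carry other numbers than the labels and were used as replicates of their line.

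Tests were run in edgeR 4.0.16 under R 4.3.3 with its quasi-likelihood test after TMM scaling, and p-values were adjusted by Benjamini-Hochberg over all miRNAs tested. Mutants were compared with WT on 6 libraries (total of at least 6 counts) and with each other on 9 (at least 9 counts). Alternatives were DESeq2 1.42.0, other scalings and filters, robust spread, a replicate block and leaving out each library. The script was tested on simulated data. Named miRNAs are the members, the 3 most like each, and called miRNAs of the lists. Members and lists were chosen with earlier results of these data known. Figures were drawn with matplotlib 3.10.9.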

Additional observations from a re-analysis of the deposited data

Results flagged for a closer look

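The levels of 2 members differed between the Bbs4-/- and Bbs6-/- lines by the direct contrast over all 9 libraries. For miR-34b the log2 fold change of Bbs4-/- over Bbs6-/- was -2.61 (adjusted p = 0.0147, edgeR), with higher levels in each of the 3 Bbs6-/- libraries than in any Bbs4-/- library. For miR-34c it was -3.55 (adjusted p = 0.0108, edgeR), again with no overlap between the lines. Each genotype is 1 line, so genotype and line cannot be told apart.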

How the results depend on the processing

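In Bbs6-/- against WT and in the direct contrast, miR-34b and miR-34c stayed called (2 members) under every alternative and with each library left out. In Bbs4-/- against WT the number of members called was 2 in the reported fit, 1 with DESeq2 (miR-34b at an adjusted p of 0.101, miR-34c at 0.0753), 0 with edgeR's filterByExpr, which removed both miRNAs, and 0 at an adjusted p under 0.05. Both stayed called in edgeR with DESeq2 size factors, without TMM, without a filter, with robust spread and with all 9 libraries in one fit. Leaving out 1 library gave 0 to 2 members. DESeq2 on all miRNAs of the table, an alternative chosen after seeing the data, called both (0.0986 and 0.0757). miR-34a reached an adjusted p under 0.1 in Bbs6-/- against WT with DESeq2 (0.0588, or 0.0630 on all miRNAs of the table), without a filter (0.0561), with all 9 libraries in one fit (0.0656) and with the replicate block (0.0221), but its log2 fold change stayed between 0.83 and 1.88 over all alternatives. Deviations of same-numbered libraries had r from -0.133 to 0.368, over 0.1 in 3 of 6 pairs, and those of differently numbered libraries from -0.287 to 0.147. These values do not settle whether the numbers pair the samples, and the reported fits take no pairing. A fit with the replicate number as a block called the same 2 members in each comparison. In Bbs4-/- against WT its adjusted p was lower than in the reported fit, 0.00129 for miR-34b and 7.4e-05 for miR-34c (edgeR), with a log2 fold change of 6.70 for miR-34c. The block fit took all 9 libraries, which without the block gave 0.00895 for miR-34b and 0.0208 for miR-34c (edgeR). In the direct contrast the block gave miR-34b a higher adjusted p than the reported fit, 0.0464, and miR-34c a lower one, 0.00128 (edgeR). No direction of a member was reversed. In the Bbs4-/- comparison miR-34b and miR-34c had 33 and 32 counts in all, and the cause of the lost calls was not tested beyond the filter named.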
